A study of Mus musculus with 6 samples.

Results

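The genes of antigen presentation by the major histocompatibility complex (MHC) were examined in ribosome-associated RNA of the mouse medial prefrontal cortex (mPFC). The group holds the 10 genes B2m, H2-D1, H2-K1, Tap1, Tap2, Tapbp, Cd74, H2-Aa, H2-Ab1 and H2-Eb1. These were chosen by name among the 47729 genes of the deposited table, with earlier results of these data known. They account for 42 of its 115220 transcripts.

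MHC class I molecules sit on the surface of most nucleated cells and display peptides cut from proteins inside the cell. Each holds a heavy chain, such as the products of H2-D1 and H2-K1, and the light chain β2-microglobulin, the product of B2m. The peptides are carried into the endoplasmic reticulum by the transporter made of Tap1 and Tap2, and the product of Tapbp, tapasin, holds empty class I molecules next to it. MHC class II molecules are known mainly from professional antigen-presenting cells and, in the brain, from microglia and border macrophages. They are pairs of an α and a β chain (H2-Aa with H2-Ab1, and H2-Eb1 as the β chain of the E molecule), and the invariant chain, the product of Cd74, occupies their groove on the way to the endosome. Class I genes are also transcribed in neurons, where they have been linked to synaptic pruning.

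The libraries came from adult male D2Cre/LSL-Flag-Cas9/RiboTag mice on the C57BL/6 strain, in which D2Cre turns on Cas9 and a hemagglutinin-tagged Rpl22 in cells with dopamine D2 receptor expression. The 3 Ctrl libraries came from mice that received AAV GFP and the 3 Gsk3sKO libraries from mice that received AAV Gsk3sgRNA/GFP, so both groups carried Cas9 and the tag, and the control virus held no sgRNA. The mPFC was dissected 3 weeks after injection, tagged ribosomes were immunoprecipitated, and the RNA was sequenced from stranded total RNA libraries. Whether a library stands for 1 mouse or a pool is not given in the sources used here, so the p-values measure the spread between these libraries.

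Values are FPKM, fragments per transcript after scaling for transcript length and library size. A gene total is the sum over the transcripts of a gene. Read depth was not given as counts, and the spacing of the lowest values put it at approximately 23500000 to 45300000 reads in Ctrl and 28800000 to 41300000 reads in Gsk3sKO. The search for that depth was held within a preset range. Gsk3b itself had gene totals of 35.6, 53.8 and 56.5 FPKM in Ctrl replicates 1 to 3 and of 36.9, 37.0 and 33.6 FPKM in Gsk3sKO replicates 1 to 3. These overlapped through Ctrl replicate 1, and the log2 fold change of -0.40 ± 0.19 (SE) had an unadjusted p of 0.0648 and an adjusted p of 0.773 in limma. An edit by Cas9 can end a protein without removing its RNA. Drd2, the receptor gene by which the tagged cells are defined, measured 1.58, 6.02 and 14.1 FPKM in Ctrl and 8.32, 5.96 and 7.28 FPKM in Gsk3sKO, present in every library and most uneven in Ctrl.

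To show their control regions, stretches before the start sites are printed here for members whose gene totals were called lower in Gsk3sKO. RefSeq promoters (build GRCm38.p6) were found for 7 of the 10 members, and only the 250 bases before each start site were used. Capitals mark matches on either strand to any of 5 short motifs: GAAANNGAA, the core of an interferon-stimulated response element, GGGATTCCC, an NF-κB site known from the class I enhancer, TGACGC, an X2 box core, ATTGG, the Y box bound by NF-Y, and TATAA, the TATA box. Matches of 1 motif on opposite strands can overlap, as TATAA does in B2m and H2-D1. The windows are chr2:122147437-122147686 (plus strand) for B2m, whose last base is the first base of the annotated exon, chr17:34000348-34000597 (minus strand) for H2-K1 and chr17:34305617-34305866 (plus strand) for H2-Eb1, in which 88 bases lie in an exon of the antisense gene Gm20513.
B2m: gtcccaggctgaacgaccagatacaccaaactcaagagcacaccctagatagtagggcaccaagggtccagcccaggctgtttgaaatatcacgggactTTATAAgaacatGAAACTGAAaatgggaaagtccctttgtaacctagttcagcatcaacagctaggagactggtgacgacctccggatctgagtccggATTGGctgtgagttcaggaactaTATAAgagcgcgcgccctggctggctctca
H2-K1: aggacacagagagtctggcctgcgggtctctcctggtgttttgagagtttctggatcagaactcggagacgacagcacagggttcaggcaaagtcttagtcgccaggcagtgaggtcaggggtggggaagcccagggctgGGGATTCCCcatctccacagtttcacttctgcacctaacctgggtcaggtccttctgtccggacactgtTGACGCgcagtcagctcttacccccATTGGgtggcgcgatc
H2-Eb1: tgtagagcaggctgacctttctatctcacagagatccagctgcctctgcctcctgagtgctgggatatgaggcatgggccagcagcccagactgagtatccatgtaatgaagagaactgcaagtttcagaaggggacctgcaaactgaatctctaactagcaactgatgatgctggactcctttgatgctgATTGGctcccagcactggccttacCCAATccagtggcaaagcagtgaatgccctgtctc

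The window of H2-D1 lies wholly in the first exon of ENSMUST00000172785 in GENCODE M21, so only 30 bases around its NF-κB site are printed, at chr17:35262914-35262943 (plus strand), beside those of H2-K1 at chr17:34000438-34000467 (minus strand). The heavy chain genes shared 29 of these 30 bases.
H2-D1: cccagggctgGGGATTCCCcatctcctcag
H2-K1: cccagggctgGGGATTCCCcatctccacag

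The NF-κB site was in H2-D1 and H2-K1 and in 0.311% of the 27025 promoters of the same length, with its first base at position -170 from the start site in H2-D1 and at -110 in H2-K1. TGACGC was in the same pair of genes and in 6.14% of all promoters. Only this spelling of the X2 box was searched for, so a promoter without a match can still hold the box. The interferon-stimulated core was in B2m, with its first base at position -139, and in 7.16% of all promoters. ATTGG was in all 7 member promoters and in 34.5% of all promoters, and TATAA was in B2m and H2-D1 and in 23.5%. A match of this kind is a description of the letters and not a bound site.

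The first question was how the RNA of the MHC genes differed between Gsk3sKO and Ctrl. The class I chains and, of the 4 class II genes, Cd74 and H2-Eb1 were lower in Gsk3sKO, while the tapasin gene Tapbp did not pass the test. Of the 10 members, 7 passed a filter of a mean of at least 1 FPKM over the 6 libraries, and 5 of these 7 were lower at an unadjusted p under 0.05 in limma, namely B2m, H2-D1, H2-K1, Cd74 and H2-Eb1. None was higher, and 0 passed after Benjamini-Hochberg adjustment, with a lowest adjusted p of 0.588. Over all 12874 gene totals tested, 6.56% were called in either direction at the unadjusted threshold and 5.2% were called lower. The median log2 fold change of the 7 members was -0.98, and it was -0.06 over all gene totals tested. Because the members were chosen with earlier results of these data known, these comparisons are a description. All fold changes are on the log2(FPKM + 1) scale, which understates the change of genes with low values.

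**Figure D1:**
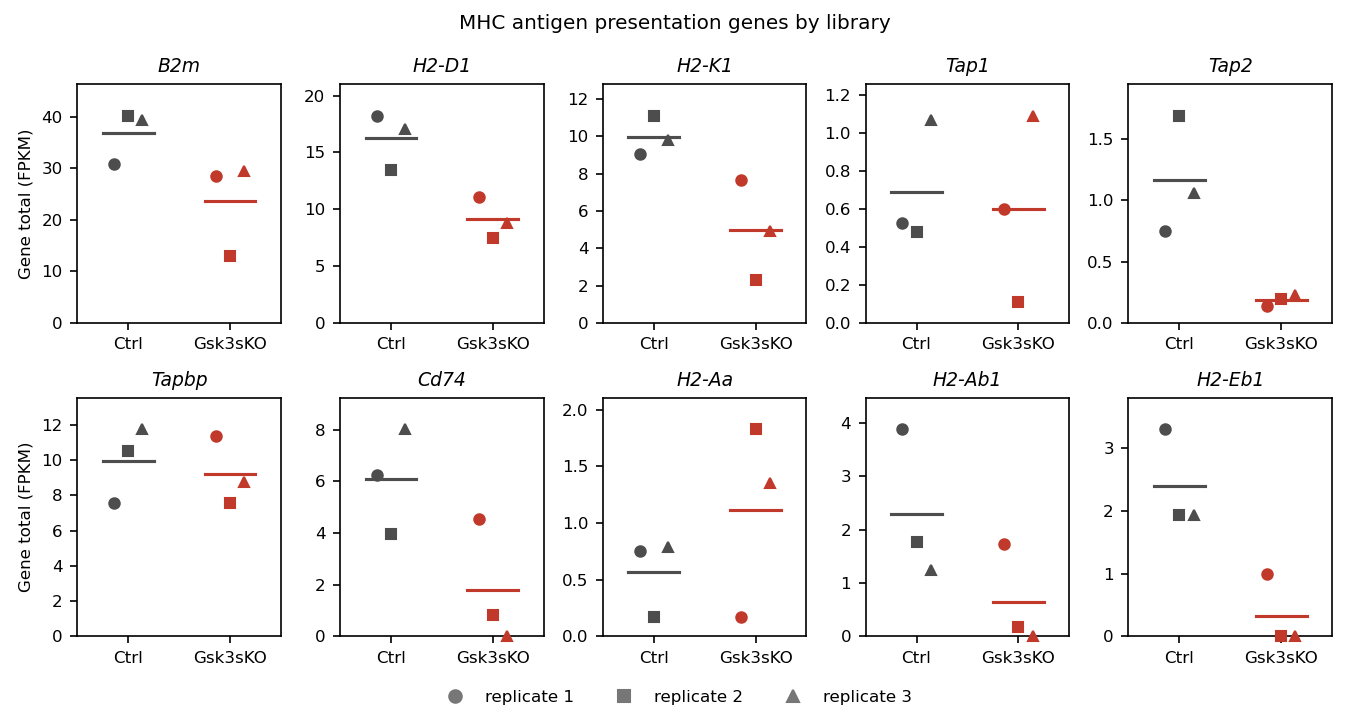
Gene totals in FPKM (vertical axis, from 0, a scale of its own for each gene) of the 10 members in the 3 Ctrl libraries (grey) and the 3 Gsk3sKO libraries (red), with a line at the group mean and the replicate number as the point's shape. B2m, H2-D1, H2-K1, H2-Eb1 and Tap2 show no overlap between the groups, and Gsk3sKO replicate 2 is the lowest library for B2m, H2-D1 and H2-K1.

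B2m, the light chain shared by class I molecules, was the most abundant member. It measured 30.9, 40.2 and 39.4 FPKM in Ctrl replicates 1 to 3 and 28.4, 12.9 and 29.5 FPKM in Gsk3sKO replicates 1 to 3. The groups did not overlap, but Gsk3sKO replicates 1 and 3 lay close under Ctrl replicate 1, and Gsk3sKO replicate 2 lay far under all others. The log2 fold change was -0.70 ± 0.30 (SE), with an unadjusted p of 0.0459 and an adjusted p of 0.752 in limma. The call was lost in 7 of 12 alternative settings, namely without a filter, with rescaled libraries, without moderation of the variances, with the replicate block, and without Ctrl replicate 2, Ctrl replicate 3 or Gsk3sKO replicate 2, with unadjusted limma p-values from 0.0525 to 0.147. Leaving out Gsk3sKO replicate 2 moved the log2 fold change to -0.33.

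H2-D1, a classical class I heavy chain, measured 18.2, 13.5 and 17.1 FPKM in Ctrl and 11.1, 7.49 and 8.75 FPKM in Gsk3sKO. The lowest Ctrl library was above the highest Gsk3sKO library. The log2 fold change was -0.78 ± 0.20 (SE), with an unadjusted p of 0.00475 and an adjusted p of 0.588 in limma. It stayed under the unadjusted threshold in each of the 12 alternative settings, between -0.91 and -0.66.

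H2-K1, the other classical heavy chain of this strain, measured 9.03, 11.1 and 9.77 FPKM in Ctrl and 7.68, 2.31 and 4.93 FPKM in Gsk3sKO. Again the groups did not overlap, and the Gsk3sKO libraries were spread more widely than the Ctrl libraries. The log2 fold change was -0.98 ± 0.34 (SE), with an unadjusted p of 0.0190 and an adjusted p of 0.688 in limma. The unadjusted limma p was 0.0571 without Ctrl replicate 2 and 0.0760 without moderation of the variances.

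Summed, B2m, H2-D1 and H2-K1 came to 58.2, 64.8 and 66.3 FPKM in Ctrl and to 47.2, 22.7 and 43.2 FPKM in Gsk3sKO, or 59.8% of the Ctrl mean. The heavy chains alone stood at 53.7% of their Ctrl mean. The ratio of B2m to the summed heavy chains ranged from 1.13 to 1.64 in Ctrl and from 1.32 to 2.16 in Gsk3sKO, and these ranges overlapped.

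The genes that deliver peptides to class I molecules differed among themselves. Tapbp measured 7.54, 10.5 and 11.7 FPKM in Ctrl and 11.4, 7.55 and 8.73 FPKM in Gsk3sKO, with groups that overlapped throughout. Its log2 fold change was -0.10, with a 95% interval from -0.62 to 0.43 and an unadjusted p of 0.688 in limma, and it turned to 0.02 without Ctrl replicate 3 and also without Gsk3sKO replicate 2.

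Tap1 and Tap2, which form the peptide transporter, were under the filter and were not part of the counts above. Tap1 measured 0.527, 0.477 and 1.07 FPKM in Ctrl and 0.599, 0.11 and 1.09 FPKM in Gsk3sKO, and the groups overlapped. Tap2 measured 0.745, 1.69 and 1.06 FPKM in Ctrl and 0.139, 0.198 and 0.229 FPKM in Gsk3sKO. The groups did not overlap for Tap2. In the fit without a filter, its log2 fold change was -0.84 ± 0.21 (SE), with an unadjusted p of 0.00723 and an adjusted p of 0.798 in limma, where 3.3% of 26696 gene totals were called lower. By the spacing of low values, Tap2 rested on approximately 86 to 186 reads in the Ctrl libraries and 20 to 24 reads in the Gsk3sKO libraries.

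Of the class II genes, Cd74, the invariant chain, had the highest level. It measured 6.27, 3.96 and 8.03 FPKM in Ctrl and 4.54, 0.827 and 0 FPKM in Gsk3sKO. Gsk3sKO replicate 1 lay above Ctrl replicate 2, whereas Gsk3sKO replicate 3 was listed at 0. The log2 fold change was -1.67 ± 0.58 (SE), with an unadjusted p of 0.0195 and an adjusted p of 0.688 in limma. The call was lost without Ctrl replicate 1, Ctrl replicate 3, Gsk3sKO replicate 2 or Gsk3sKO replicate 3, with unadjusted limma p-values from 0.0518 to 0.0633. It was also lost without moderation of the variances, with an unadjusted limma p of 0.0948.

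H2-Eb1 encodes the β chain of the E molecule, whose α chain gene is defective in C57BL/6 mice. It measured 3.30, 1.93 and 1.94 FPKM in Ctrl and 0.995, 0 and 0 FPKM in Gsk3sKO. No Gsk3sKO library reached the lowest Ctrl library, and 2 of the 3 were listed at 0. The log2 fold change was -1.41 ± 0.39 (SE), with an unadjusted p of 0.00655 and an adjusted p of 0.607 in limma. The value rested on approximately 175, 72 and 53 reads in Ctrl and 48, 0 and 0 reads in Gsk3sKO. H2-Eb1 kept its call in each of the 10 alternative settings in which it was tested.

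H2-Ab1, the β chain of the A molecule, measured 3.88, 1.77 and 1.25 FPKM in Ctrl and 1.74, 0.170 and 0 FPKM in Gsk3sKO. The groups overlapped through Gsk3sKO replicate 1, and the log2 fold change of -1.08 ± 0.48 (SE) had an unadjusted p of 0.0533 in limma. H2-Aa, the α chain that pairs with it, was under the filter at 0.753, 0.175 and 0.790 FPKM in Ctrl and 0.171, 1.83 and 1.36 FPKM in Gsk3sKO. In these libraries the highest H2-Aa values were in Gsk3sKO replicates 2 and 3, where H2-Ab1 and H2-Eb1 were at their lowest. Without a filter, H2-Aa had a log2 fold change of 0.36 and an unadjusted p of 0.402 in limma. Its values rested on approximately 4 to 38 reads in Ctrl and 8 to 59 reads in Gsk3sKO.

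The class II chains and Cd74 together came to 14.2, 7.84 and 12 FPKM in Ctrl and to 7.44, 2.83 and 1.36 FPKM in Gsk3sKO, or 34.1% of the Ctrl mean. Ctrl replicate 2 and Gsk3sKO replicate 1 lay side by side, and the remaining Gsk3sKO libraries were lower. In a bulk immunoprecipitate, fewer cells of a type and less RNA per cell cannot be told apart.

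Of the 7 members tested, 4 (B2m, H2-D1, H2-K1 and H2-Eb1) had groups that did not overlap with Gsk3sKO lower, and 8.3% of all gene totals tested were of this kind. The exact permutation test over the 6 libraries, 2-sided, gave p = 0.1 for each of these 4, the smallest p that 3 against 3 can give. The same exact permutation test gave p = 0.2 for Cd74 and for H2-Ab1 and p = 0.8 for Tapbp. The number of members called fell from 5 to 3 when Ctrl replicate 1, Ctrl replicate 2 or Gsk3sKO replicate 2 was left out, and was 6 without Gsk3sKO replicate 1. Without Ctrl replicate 1, H2-Ab1 and H2-Eb1 were under the filter.

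**Figure D2:**
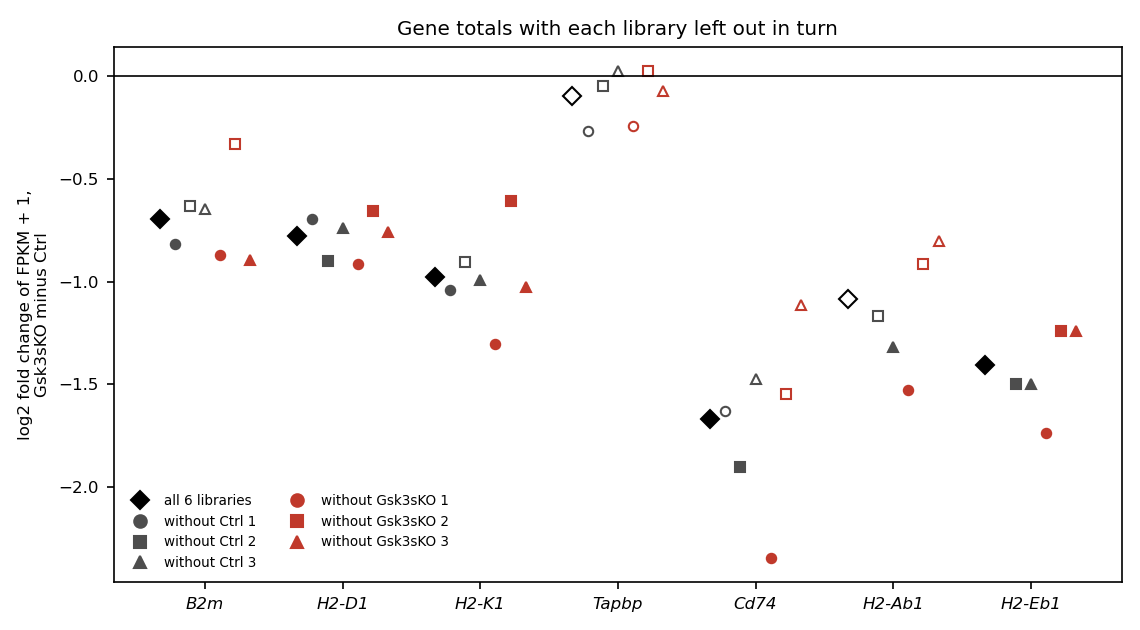
Log2 fold change of FPKM + 1, Gsk3sKO minus Ctrl (vertical axis), of the 7 members tested, with all 6 libraries (black diamonds) and with each library left out in turn (grey for Ctrl, red for Gsk3sKO, shape for the replicate number). Filled points have an unadjusted limma p under 0.05. H2-D1 stays between -0.91 and -0.66 with every point filled, B2m moves to -0.33 without Gsk3sKO replicate 2, and Tapbp lies around 0.

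The order of the members' levels per length was clearest in Ctrl. There B2m was above H2-D1 and H2-D1 above H2-K1 with no overlap between neighbors, H2-K1 overlapped Tapbp, and Tapbp overlapped Cd74. Cd74 lay above H2-Eb1 without overlap, and H2-Eb1, H2-Ab1, Tap2, Tap1 and H2-Aa each overlapped the next. The Ctrl mean of B2m, 36.9 ± 5.15 FPKM (SD, n = 3), was above 85.0% of the gene totals tested, that of H2-D1, 16.3 ± 2.47 FPKM (SD, n = 3), above 67.6%, and that of H2-K1, 9.97 ± 1.05 FPKM (SD, n = 3), above 53.6%. In Gsk3sKO, B2m remained first with no overlap, at 23.6 ± 9.29 FPKM (SD, n = 3). Below it Tapbp, H2-D1 and H2-K1 overlapped, at 9.22 ± 1.96, 9.11 ± 1.83 and 4.97 ± 2.68 FPKM (SD, n = 3 each).

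The second question was which transcripts carried these differences. Of the 42 member transcripts, 31 were above 0 in at least 1 library, 8 passed the filter and 2 were called lower, where 3.75% of 21584 transcripts tested were called lower. Both are protein-coding. ENSMUST00000172785 of H2-D1 measured 18.1, 12.4 and 16.9 FPKM in Ctrl and 9.27, 6.69 and 8.62 FPKM in Gsk3sKO, with a log2 fold change of -0.87 ± 0.23 (SE), an unadjusted p of 0.00865 and an adjusted p of 0.752 in limma. It made up 83.5% to 99.4% of the H2-D1 total in each library. ENSMUST00000074557 is the one listed transcript of H2-Eb1, and its unadjusted limma p among transcripts was 0.0242 (adjusted p 0.842).

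The lower total of H2-K1 did not rest on the same transcript in each library. ENSMUST00000025181, its main coding transcript, measured 9.02, 7.53 and 3.51 FPKM in Ctrl and 4.82, 0 and 4.58 FPKM in Gsk3sKO. Ctrl replicate 3 had 47.0% of its total in another coding transcript, ENSMUST00000172912, and Gsk3sKO replicate 2 had its total in the retained-intron transcripts ENSMUST00000114311 and ENSMUST00000173602, at 53.0% and 47.0%. The groups overlapped for ENSMUST00000025181, with a log2 fold change of -1.19 ± 0.76 (SE) and an unadjusted p of 0.168 in limma. The division of reads between overlapping transcripts is an estimate, and the gene total does not depend on it in the same way.

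Cd74 was divided between ENSMUST00000050487 and ENSMUST00000097563. The former measured 6.20, 1.58 and 7.47 FPKM in Ctrl and 4.13, 0 and 0 FPKM in Gsk3sKO, with an unadjusted p of 0.0887 in limma. The latter, with a mean under 1 FPKM, took 60.1% of the total in Ctrl replicate 2 and all of it in Gsk3sKO replicate 2. The libraries with the lowest Cd74 totals in each group were therefore also those, among libraries with any Cd74, with most of it in the second transcript.

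Among the remaining transcripts over the filter, ENSMUST00000040828 of H2-Ab1 measured 3.88, 1.55 and 1.06 FPKM in Ctrl and 1.60, 0 and 0 FPKM in Gsk3sKO, with an unadjusted p of 0.114 in limma. For Tapbp, the coding ENSMUST00000025161 measured 7.50, 8.40 and 9.45 FPKM in Ctrl and 10.3, 7.09 and 5.98 FPKM in Gsk3sKO, and the retained-intron ENSMUST00000172653 measured 0, 1.9 and 2.30 FPKM in Ctrl and 0.534, 0.293 and 2.43 FPKM in Gsk3sKO. The groups overlapped for each of these 3. The unadjusted limma p was 0.637 for ENSMUST00000025161 and 0.813 for ENSMUST00000172653. B2m has 1 listed transcript, ENSMUST00000102476, and with the variances of the transcript fit its unadjusted limma p was 0.0796, above the threshold. Tap1 lay mostly in a retained-intron transcript, ENSMUST00000166853, which held 85.9% of its mean total.

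**Figure D3:**
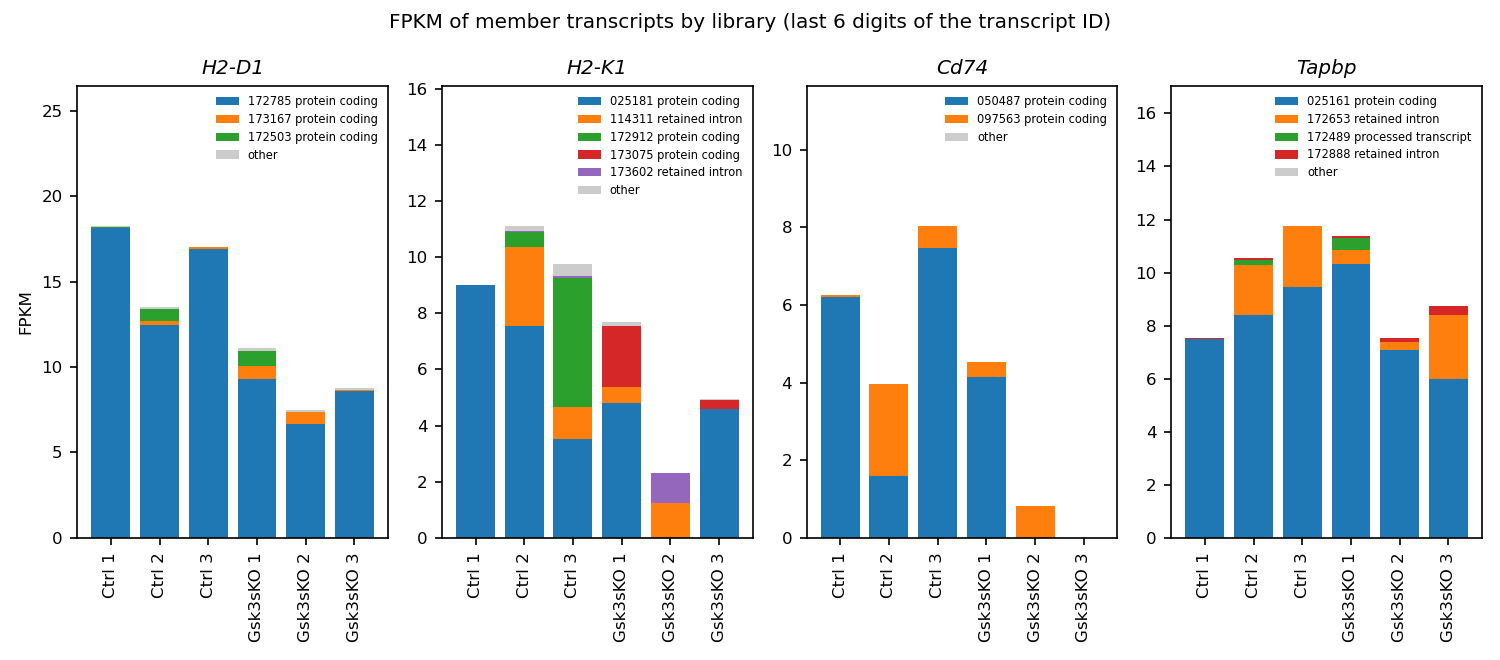
FPKM (vertical axis, from 0) of the transcripts of H2-D1, H2-K1, Cd74 and Tapbp, stacked by library (horizontal axis), with transcripts of a mean under 0.1 FPKM joined as other. One coding transcript holds most of H2-D1 in every library, whereas the make-up of H2-K1 and Cd74 changes from library to library, down to 0 for ENSMUST00000025181 of H2-K1 in Gsk3sKO replicate 2.

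Class I genes resemble each other, and reads can be assigned to a wrong copy. Of the 50-base words of the main transcript, 14.3% for H2-D1 and 8.79% for H2-K1 also occurred in transcripts of other genes, mostly other class I genes such as H2-Q1, H2-Q7 and H2-T23. H2-D1 was itself among the genes that shared most words with H2-K1, so reads can also be exchanged between these members. At 100 bases the shares were 4.64% and 0%. B2m, Cd74, H2-Aa, H2-Ab1 and H2-Eb1 shared no 50-base word with another gene. The totals of H2-D1 and H2-K1 therefore carry an uncertainty that those of B2m and H2-Eb1 do not.

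The third question was whether other genes of antigen presentation differed in the same comparison. Most did not pass the test. Of 46 further genes in 4 lists, 45 were in the table and 22 passed the filter. Of these 22, 1 was lower at an unadjusted p under 0.05, 0 were higher, and the median log2 fold change was -0.09. The gene called was Ctss, cathepsin S, the protease that trims the invariant chain. Ctss measured 27.0, 15.4 and 21.8 FPKM in Ctrl and 16.0, 11.3 and 14.0 FPKM in Gsk3sKO, with a log2 fold change of -0.58 ± 0.23 (SE), an unadjusted p of 0.0353 and an adjusted p of 0.745 in limma. It overlapped between groups and was not called without Ctrl replicate 1, Ctrl replicate 3, Gsk3sKO replicate 2 or Gsk3sKO replicate 3, nor without moderation of the variances.

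Of the other class I genes, 3 of 16 passed the filter and none was called. H2-Q4 measured 2.03, 2.1 and 2.84 FPKM in Ctrl and 1.12, 1.32 and 1.27 FPKM in Gsk3sKO, without overlap, with a log2 fold change of -0.56 and an unadjusted p of 0.0707 in limma. H2-T23, which encodes the nonclassical Qa-1, had gene totals from 2.96 to 8.32 FPKM in Ctrl and from 2.74 to 5.51 FPKM in Gsk3sKO, and H2-T22 had totals from 3.15 to 4.66 FPKM and from 4.28 to 5.81 FPKM, with overlap for each of this pair. Their log2 fold changes were -0.17 and 0.36, with unadjusted limma p-values of 0.649 and 0.168. Among genes of class I processing and loading, 8 of 10 passed the filter and none was called in either direction.

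Calr and Canx, the chaperones calreticulin and calnexin that fold class I heavy chains, had the highest levels of that list. Calr measured 234, 225 and 258 FPKM in Ctrl and 277, 321 and 263 FPKM in Gsk3sKO, and Canx 181, 204 and 225 FPKM in Ctrl and 233, 248 and 235 FPKM in Gsk3sKO. Both had groups that did not overlap, with Gsk3sKO above Ctrl, as had 3.71% of all gene totals tested. Neither passed the test. Their log2 fold changes of 0.26 and 0.23 had unadjusted p-values of 0.0879 and 0.109 in limma. With libraries rescaled to the median ratio, Calr was called higher (0.31, unadjusted limma p 0.0481) and Ctss was no longer called (unadjusted limma p 0.0524), so the single call in these lists changed sides with the scaling.

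Of class II genes and processing, 4 of 10 passed the filter. Lgmn and Ctsl, endosomal proteases, had gene totals from 29.3 to 33.4 FPKM and from 20.7 to 27.1 FPKM in Ctrl, and from 27.1 to 34.2 FPKM and from 18.9 to 23.3 FPKM in Gsk3sKO. Their log2 fold changes were -0.06 and -0.20, with unadjusted limma p-values of 0.698 and 0.273. Of the regulators of MHC genes, 7 of 9 passed the filter and none was called. Nfyb, a subunit of the Y box factor NF-Y, and Rfxap, a subunit of the RFX complex, had log2 fold changes of 0.11 and 0.04, with unadjusted limma p-values of 0.456 and 0.874. Ciita, the class II transactivator, was listed at 0 in all 6 libraries.

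**Figure D4:**
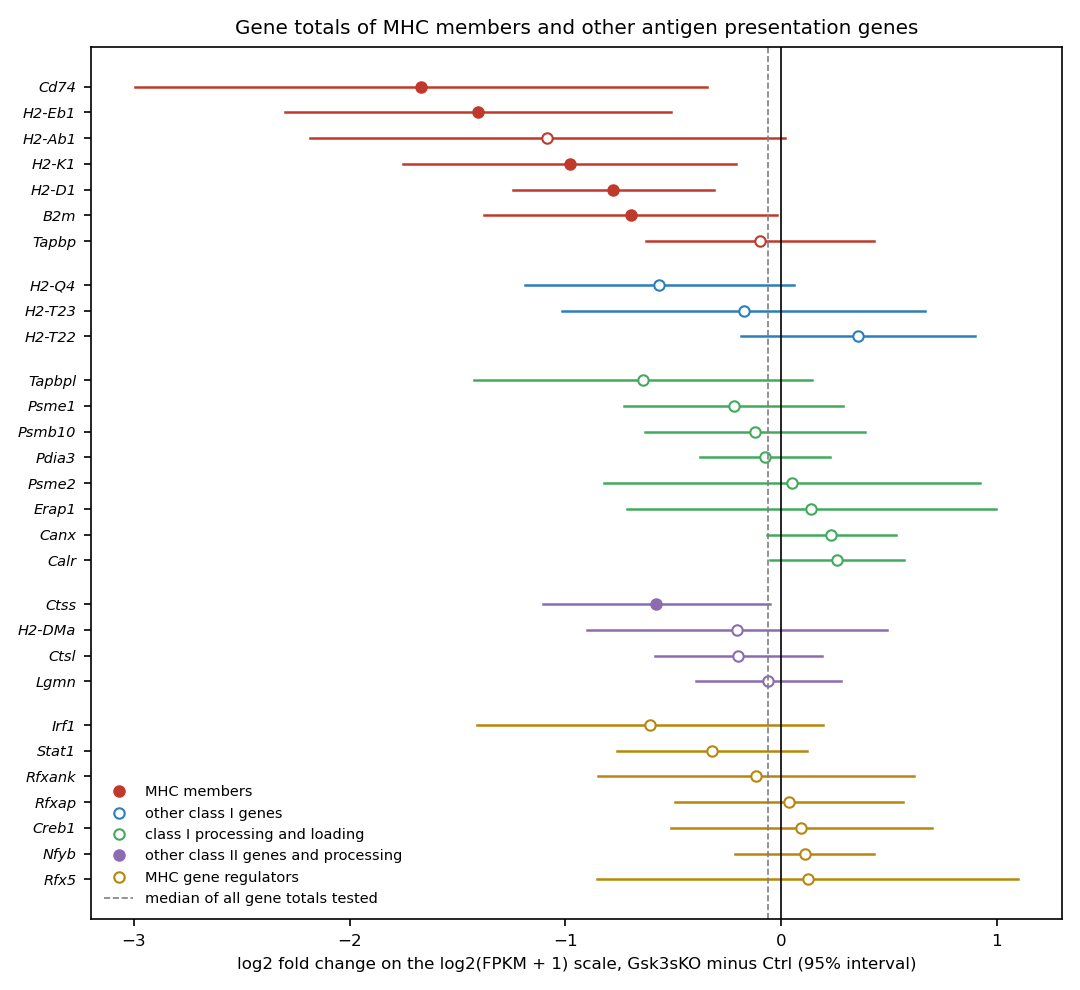
Log2 fold change of FPKM + 1, Gsk3sKO minus Ctrl (horizontal axis), with its 95% interval, of the 7 members tested (red) and of 22 further antigen presentation genes in 4 lists. Filled points have an unadjusted limma p under 0.05, and the dashed line is the median of all gene totals tested, -0.06. The members other than Tapbp lie on the lower side, from -0.70 to -1.67, and Ctss is the one filled point among the further genes.

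Of the 10 members, 8 lie in the MHC on chr17:33915899-35267499, a stretch of 1352 kb, and B2m lies on another chromosome at chr2:122147686-122153083. Of the 138 other genes of the stretch, 48 passed the filter, 1 was called lower and 0 higher, and their median log2 fold change was -0.16. The gene called was C4b, a complement component, at 1.75, 3.0 and 3.97 FPKM in Ctrl and 1.34, 0.621 and 0.822 FPKM in Gsk3sKO. Its log2 fold change was -0.996 ± 0.33 (SE), with an unadjusted p of 0.0161 and an adjusted p of 0.688 in limma. The groups did not overlap for C4b. The share called lower over all gene totals was the 5.2% given above.

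Antigen presentation genes are also induced by interferon and are high in immune and glial cells, so their lists were set beside the members. Over these lists 65 genes passed the filter, 11 were lower at an unadjusted p under 0.05 and 0 were higher, where 5.2% of all gene totals tested were called lower and 1.36% higher. Igkc and Ighg2c were the 2 that passed Benjamini-Hochberg adjustment. Of 14 interferon-induced genes tested, 12 had a log2 fold change below 0, as had 7584 of all 12874 gene totals tested. The median of the 14 was -0.51, and the one called was Irf7, a transcription factor of the interferon response. Irf7 measured 3.28, 4.47 and 2.81 FPKM in Ctrl and 2.38, 0 and 0.483 FPKM in Gsk3sKO. Its log2 fold change was -1.39 ± 0.45 (SE), with an unadjusted p of 0.0152 and an adjusted p of 0.688 in limma. The most abundant genes of that list, Ifit2 and Ifi27, had log2 fold changes of 0.12 and -0.01, with unadjusted limma p-values of 0.612 and 0.949. The list's summed level ranged from 66.1 to 72.9 FPKM in Ctrl and from 32.2 to 68.9 FPKM in Gsk3sKO, with the lowest value in Gsk3sKO replicate 2, the library in which the class I chains were also lowest.

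Microglia are among the cells known to carry class II genes in brain tissue. Of 8 microglial markers tested, 2 were called lower, namely C1qa and C1qb, subunits of complement C1q. C1qb measured 9.12, 8.17 and 8.34 FPKM in Ctrl and 4.0, 4.57 and 6.67 FPKM in Gsk3sKO. Its unadjusted limma p was 0.0164 (adjusted p 0.688). C1qa measured 5.18, 4.30 and 5.73 FPKM in Ctrl and 2.53, 1.51 and 3.56 FPKM in Gsk3sKO. Its unadjusted limma p was 0.0205 (adjusted p 0.688). For both, every Gsk3sKO library was under every Ctrl library. The remaining subunit gene, C1qc, measured 4.62, 5.70 and 3.54 FPKM in Ctrl and 2.40, 3.51 and 2.1 FPKM in Gsk3sKO, without overlap and with an unadjusted limma p of 0.0509. The whole microglial list summed to 45.8 to 54.8 FPKM in Ctrl and 31.7 to 42.0 FPKM in Gsk3sKO, which did not overlap. Without C1qa, C1qb and C1qc it summed to 27.6 to 35.9 FPKM in Ctrl and 22.8 to 29.6 FPKM in Gsk3sKO, which overlapped. No border macrophage marker passed the filter, and that list's summed level was 1.13 to 2.28 FPKM in Ctrl and 0.581 to 1.87 FPKM in Gsk3sKO, with Stab1 and Mrc1 highest.

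Immunoglobulin genes showed the largest difference of these lists. Igkc measured 27.2, 30.6 and 53.0 FPKM in Ctrl and 6.19, 7.40 and 5.09 FPKM in Gsk3sKO, with a log2 fold change of -2.34 ± 0.26 (SE) and an adjusted p of 0.0440 in limma. Ighg2c, with a log2 fold change of -2.59 ± 0.30 (SE), had the same adjusted p in limma. Both had an unadjusted p under 0.05 in all 12 alternative settings, whereas limma's adjusted p ranged from 0.0245 to 0.865 for Igkc and from 0.0522 to 0.865 for Ighg2c. Jchain had a log2 fold change of -2.21 (adjusted p 0.0796) and Ighm one of -0.68 (adjusted p 0.741) in limma. The list of B and plasma cells summed to 58.7 to 104 FPKM in Ctrl and 14.7 to 17.8 FPKM in Gsk3sKO, but its defining markers Cd79b, Ms4a1 and Mzb1 were listed at 0 in all 6 libraries and Cd79a was above 0 in 1. The source of the immunoglobulin RNA was not tested.

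Among the remaining lists, 3 of 8 oligodendrocyte markers were called lower, namely Cnp, Mag and Mog, with log2 fold changes of -0.72, -0.69 and -1.57. Their unadjusted limma p-values were 0.0256, 0.0234 and 0.00746, and the adjusted ones 0.708, 0.702 and 0.607. Mbp, an abundant marker of that list, had a log2 fold change of -0.15, and the list's summed level overlapped, at 124 to 189 FPKM in Ctrl and 132 to 171 FPKM in Gsk3sKO. Of 10 neuronal markers, 1 was called lower, Tbr1, a factor of deep-layer excitatory neurons, at -0.40 with an unadjusted limma p of 0.0283 (adjusted p 0.726). The summed level of neuronal markers was 2615 to 2834 FPKM in Ctrl and 2729 to 2875 FPKM in Gsk3sKO, led by Snap25 and Camk2a. Endothelial markers, led by Slco1a4 and Flt1, summed to 23.7 to 98.7 FPKM in Ctrl and 32.9 to 83.6 FPKM in Gsk3sKO. Astrocyte markers, led by Aldoc and Slc1a3, summed to 91.1 to 116 FPKM in Ctrl and 91.7 to 113 FPKM in Gsk3sKO. None of the 10 endothelial or 8 astrocyte markers was called. None was called among the 2 T cell genes tested, Trbc2 and Lck, nor was Zbtb46, the one dendritic cell gene tested, whose list was otherwise led by Flt3. The part of these cells, of the interferon response and of Gsk3sKO replicate 2 in the lower MHC gene totals was not tested.

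**Figure D5:**
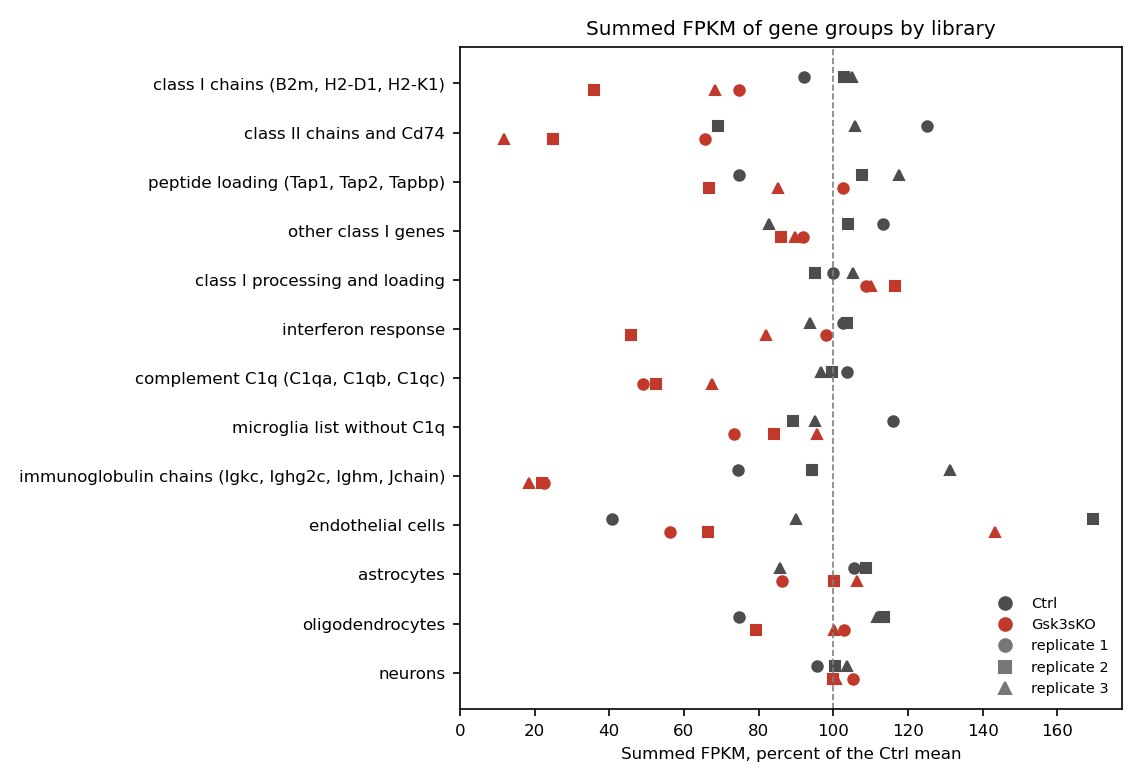
Summed FPKM of each gene group in each library as a percent of the group's Ctrl mean (horizontal axis, from 0), for Ctrl (grey) and Gsk3sKO (red), with the replicate number as the point's shape. The class I chains, the class II chains with Cd74, complement C1q and the immunoglobulin chains have all Gsk3sKO libraries under all Ctrl libraries, with Gsk3sKO means at 59.8%, 34.1%, 56.4% and 21.1% of the Ctrl mean. Class I processing and loading has all Gsk3sKO libraries above all Ctrl libraries, with a Gsk3sKO mean at 112% of the Ctrl mean. Calr and Canx make up most of that sum, with means of 263 and 221 FPKM over the 6 libraries. Of the 8 genes tested in that list, 4 had a log2 fold change below 0, and the median was -0.01. The endothelial and neuronal lists do not separate the groups.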

How the data were processed

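Libraries were assigned to the Ctrl and Gsk3sKO groups, and numbered, from the submitters' titles. Transcript-level FPKM values were deposited by the authors, 1 for each library, and the submitters' processing notes list HISAT2 2.1.0, SAMtools 1.9, StringTie 1.3.4d and the GRCm38 build. Settings are not given in these sources. Columns with a fold, a p-value and a q-value of the authors' own comparison were not used. FPKM is scaled to the mapped fragments of each library, so a difference is relative to the other RNA sequenced, and it keeps no counting error.

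Transcripts were summed by gene identifier, and limma 3.58.1 in R 4.3.3 (lmFit, eBayes with a trend, 2-sided) was fitted to log2(FPKM + 1) over the whole table, separately for gene totals and transcripts, after a filter of a mean of at least 1 FPKM. A gene was called at an unadjusted p under 0.05. Benjamini-Hochberg adjusted p-values over all features tested are printed beside the calls of the main fits. The fit was tested on simulated data. Depth was inferred, within a preset range, from how low values of transcripts over 800 bases were spaced. Of these values, 16.2% to 30.4% lay within 0.02 reads of a whole number, so read numbers are approximate. Ctrl replicate 1, put deepest at 45300000 reads, had 42649 transcripts above 0, against 55841 in Ctrl replicate 2, put at 32000000 reads. Sums and permutation tests used pandas 2.3.3 and scipy 1.17.1, with numpy 2.4.6, under Python 3.11.15, and plots used matplotlib 3.10.9.

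The members and lists were chosen with earlier results of these data known. Named are all members with their transcripts over the filter, of every other list the 2 genes with the highest mean and any called, and Gsk3b. A few genes that this rule names are not reported here. Drd2, Ciita, C4b, H2-Q4, C1qc, Psmb8 and Tapbpl, transcripts under the filter and the genes defining B cells were added after their values were seen. The alternatives were another pseudocount (0.1), no filter, a filter of 5 FPKM, rescaled libraries, no moderation, a replicate block and each library left out.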

Additional observations from a re-analysis of the deposited data

How the results depend on the processing

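With a filter of at least 5 FPKM, 3 of 4 members tested were called, and without moderation of the variances 2 of 7 were called, against 5 of 7 as reported. Leaving out each library in turn gave 3 to 6 members, the 3 without Ctrl replicate 1, Ctrl replicate 2 or Gsk3sKO replicate 2. Among transcripts, the filter of 5 FPKM left 1 call of 3 tested in place of 2, and leaving out a library gave 1 to 4, with 1 without Ctrl replicate 1, Ctrl replicate 3, Gsk3sKO replicate 2 or Gsk3sKO replicate 3 and 4 without Gsk3sKO replicate 1. The further antigen presentation genes had 1 call as reported, 2 without a filter (Ctss and Psmb8, an immunoproteasome subunit) and 0 to 1 with a library left out, and with rescaled libraries the 1 call was Calr, higher, in place of Ctss, lower. Without moderation the 1 call was H2-Q4 and without Ctrl replicate 3 it was Tapbpl, both lower. The marker and interferon genes had 11 calls as reported, 6 with the filter of 5 FPKM and 7 to 14 with a library left out. There were 7 without Ctrl replicate 2, of which 1, Zbtb46, was higher, and 13 without Ctrl replicate 1, of which 12 were lower. The causes were not tested, apart from the smaller number of genes that a stricter filter leaves.

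The members' median log2 fold change stayed between -1.30 and -0.66 in all 12 settings. Tapbp, at -0.10 as reported, lay between -0.26 and 0.0247 with a library left out, turning positive without Ctrl replicate 3 and, at 0.0244, without Gsk3sKO replicate 2. B2m was above the threshold in 7 of 12 settings, Cd74 in 5 of 11 and H2-K1 in 2 of 12, while H2-Ab1 was below it in 3 of 10. H2-D1 in 12 settings and H2-Eb1 in 10 kept their calls. No member passed adjustment in any setting, and the lowest adjusted p in limma was 0.152, without Gsk3sKO replicate 1. Over all gene totals, the median was -0.06 as deposited and -0.02 with rescaled libraries.

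Across genes as a whole, the replicate numbers showed no pairing of the libraries. Deviations of same-numbered libraries from their group means correlated at -0.03, -0.01 and -0.08 across genes. Such correlations cannot show whether same-numbered libraries shared a step that affected only some genes. With the number as a replicate block, 5 members were called, as without it, but B2m was not called (unadjusted limma p 0.0525) and H2-Ab1 was (0.0198). The block gave 821 calls over all gene totals in place of 844, 2 member transcripts, 1 further antigen presentation gene and 10 marker and interferon genes.

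Depth limits the low members, on both sides of the filter. H2-Aa rested on approximately 4 to 59 reads, Tap2 on 20 to 186, H2-Ab1 on 0 to 213 and H2-Eb1 on 0 to 175. FPKM listed at 0 cannot be told from a failed estimate for Cd74, H2-Ab1 and H2-Eb1. With 3 libraries in each group, the exact permutation test cannot go below 0.1.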

Other observations

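Likeness of pattern over the 6 libraries was measured by Pearson's r on log2(FPKM + 1). The gene totals most like the summed class I chains (B2m, H2-D1 and H2-K1) were Slc9a3r2 (a scaffold protein), Herpud2 and Pyroxd1 (an oxidoreductase). Their r values were 0.9975, 0.9964 and 0.9936, and 55 gene totals had an r above 0.95. For the summed class II chains and Cd74 they included Got1, an aminotransferase, and Nfs1, a cysteine desulfurase, with r values of 0.9978 and 0.9926, and 104 gene totals had an r above 0.95. These are the highest of 12874 correlations over 6 libraries that share their depth and normalization, and they are given as a description. Slc9a3r2 measured 15.0, 16.7 and 16.1 FPKM in Ctrl and 13.4, 8.37 and 12.5 FPKM in Gsk3sKO, with its lowest value in Gsk3sKO replicate 2, as for the class I chains. Got1 measured 118, 99.2 and 109.7 FPKM in Ctrl and 99.5, 81.9 and 72.3 FPKM in Gsk3sKO, with its lowest value in Gsk3sKO replicate 3, as for the summed class II genes.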
